A study of Mus musculus with 4 samples.

Results

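The inorganic ion solute carriers are the membrane proteins of the solute carrier superfamily that move bicarbonate, protons, chloride, calcium, phosphate, sulfate, zinc and magnesium across cell membranes. They were taken by gene symbol, as the numbered members of the mouse families Slc4, Slc8, Slc9, Slc12, Slc20, Slc24, Slc26, Slc30, Slc34, Slc39 and Slc41. The symbol rule used no measured value, but it was set with earlier results of these data known. Of the 14924 genes in the expression table, 62 met this rule. The GENCODE M21 annotation holds 79 such symbols, and the other 17, every Slc34 phosphate carrier among them, were not analysed here.

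The values came from mRNA-seq of lenses of 1-month-old mice. There were 2 S100A4-/- libraries and 2 wild type (WT) libraries, described as biological repeats, and every library was made from a pool of 6 to 12 lenses. S100A4-/- mice are null for S100A4, a small calcium-binding protein, and no promoter or Cre recombinase is named that would limit the loss to the lens. Both genotypes were on a C57BL/6J background, the WT mice were littermates, and the study used mice of both sexes. With 2 such pools per genotype, limma estimated the spread of a gene in part from other genes at a similar level. Its p-values and standard errors (SE) measure that combined spread, not the spread between these pools alone. The 2 S100A4-/- libraries held 81602367 and 74108017 reads counted on genes, and the 2 WT libraries 70253985 and 68038158.

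The null genotype was seen in its own gene. S100a4 had normalized read counts of 14.6 and 18.2 in S100A4-/- lenses and of 14420 and 14385 in WT lenses (log2 fold change -9.70, SE 0.10, limma adjusted p = 6.42e-41). The labelled tissue was seen as well, because the lens structural gene Cryaa, which encodes alpha-A crystallin, had a WT level per kilobase of exon of 6357490, against 1322 for the highest ion carrier. None of the 10 lens markers listed passed the limma test (log2 fold changes from -0.12 to 0.02), and 1 of them, Mip, was lower at an unadjusted p under 0.05.

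Solute carriers of these families set the volume, the pH and the free metal ions of a cell. The sodium bicarbonate carriers of Slc4 and the sodium proton exchangers of Slc9 remove acid, the cation chloride cotransporters of Slc12 move salt into or out of the cell, and the exchangers of Slc8 and Slc24 expel calcium. Slc30 proteins move zinc out of the cytosol and Slc39 proteins move it in. The lens has no blood supply, and its clarity depends on ion and water circulation that its own carriers and channels drive. Some of the same families have members best known in the retina, in neurons or in pigment cells.

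Each value below is a normalized read count, which is the number of reads on a gene divided by 1 size factor per library, and 1 read was worth between 0.856 (S100A4-/- library 1) and 1.09 (WT library 2). Such a value is not corrected for gene length, so levels of different genes are compared as values per kilobase (kb) of exon, unless given as read depth. A gene passed the test with a change of at least 2-fold on the log2(value + 1) scale and a limma p, adjusted by the Benjamini-Hochberg method over all 14780 genes tested, of at most 0.05.

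In S100A4-/- lenses 8 of the 61 ion carriers tested rose and none fell. Of all genes tested, 3.65% rose and 0.0744% fell under the same rule, and the 8 carriers were 13.1% of those tested. The paper had already named Slc4a5, Slc4a10, Slc12a5, Slc24a1 and Slc26a4 as higher in these lenses. The share of 13.1% therefore does not come from a blind choice. The 8 were the sodium bicarbonate carriers Slc4a5, Slc4a8 and Slc4a10, the calcium exchangers Slc24a1 and Slc24a5, the potassium chloride cotransporter Slc12a5, the anion exchanger Slc26a4 and the sodium proton exchanger Slc9a7. Their log2 fold changes lay between 1.55 and 2.46, the values of Slc4a8 and Slc4a10. With 1 library left out, that of Slc4a8 lay between 0.91 and 2.18 and that of Slc4a10 between 1.82 and 3.10. No carrier passed as lower by limma, edgeR or DESeq2, while at an unadjusted limma p under 0.05 there were 2 lower carriers, against 6.71% of all genes tested. Neither edgeR nor DESeq2 called a carrier beyond these 8. At an unadjusted limma p under 0.05, in either direction, there were 16 of the 61 carriers, against 17.7% of all genes tested. The 8 of them that did not pass include Slc8a3, Slc12a2, Slc26a2, Slc26a6, Slc39a11, Slc39a12 and Slc41a1.

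The bulk of the carriers stayed near the WT level. The median log2 fold change of the 61 was 0.07, against -0.01 for all genes tested, and 42 of the 61 lay within 0.3 of 0. Both S100A4-/- values lay above both WT values for 21 of the 61 carriers, against 23.7% of all genes tested, and below both for 10, against 23.2%. By size alone, 9 carriers were at least 2-fold higher, against 6.77% of all genes tested, and 0 were at least 2-fold lower, against 0.947%.

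**Figure D1:**
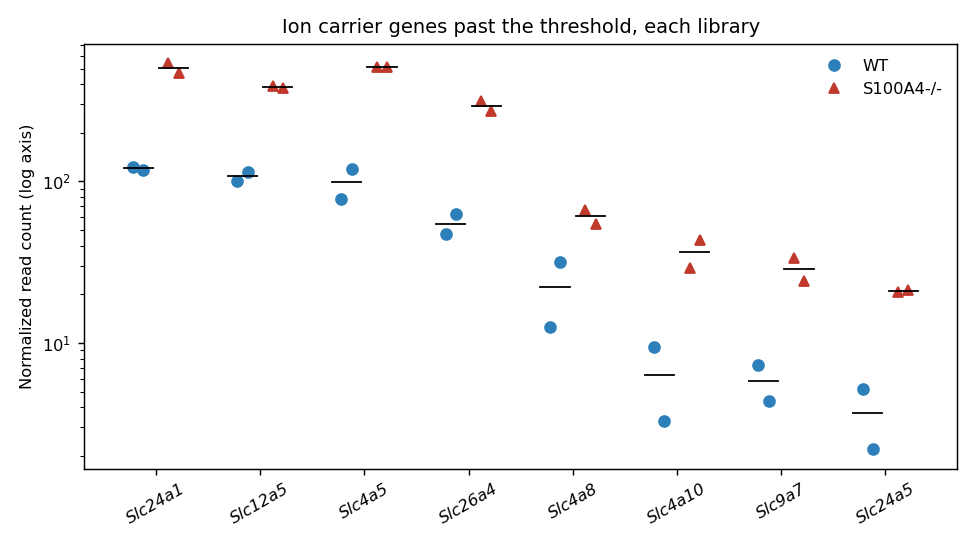
Normalized read count (log axis) of the 8 ion carriers that passed the test, with 1 point per library, blue circles for WT and red triangles for S100A4-/-, and a bar at the mean of each pair. Both S100A4-/- libraries lie above both WT libraries for each of the 8 genes, from Slc24a1 at 539 and 471 against 122 and 118 down to Slc24a5 at 20.6 and 21.3 against 5.22 and 2.19.

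The 8 genes fell into a pair of groups by depth. Slc4a5, Slc24a1, Slc26a4 and Slc12a5 had a mean of at least 50 in WT lenses and passed with each library left out in turn. Slc4a8, Slc4a10, Slc9a7 and Slc24a5 had a mean under 50, and all 4 lost the call when S100A4-/- library 1 or S100A4-/- library 2 was left out. Slc4a8 also lost it without WT library 1, and Slc24a5 without WT library 2. Of the 61 carriers, 5 were over the filter on low values only through the S100A4-/- libraries, Slc4a10, Slc9a7 and Slc24a5 among them, and 1 only through the WT libraries. Slc26a8 was under the filter and had 9.42 and 6.08 in S100A4-/- lenses and 7.31 and 6.57 in WT lenses.

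**Figure D2:**
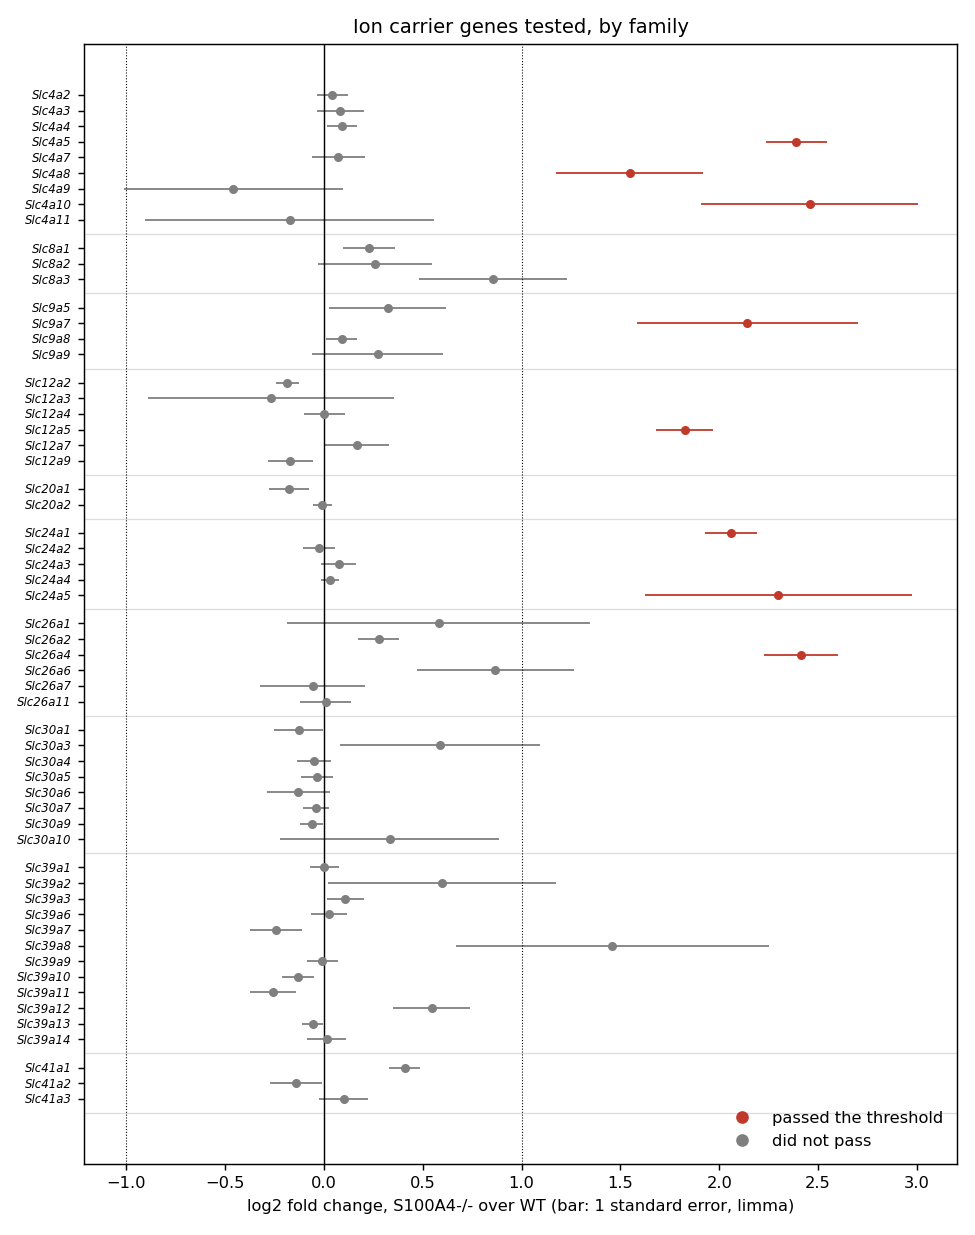
The log2 fold change of single ion carriers tested, S100A4-/- over WT, 3 of which are not drawn, with bars of 1 standard error from limma, grouped by family, and dotted lines at a 2-fold change in each direction. The 8 genes that passed (red) lie between 1.55 and 2.46, and of the other carriers only Slc39a8, at 1.46, lies past a dotted line.

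Bicarbonate carriers (Slc4). In this family 3 of the 9 members tested rose, and all 3 were among the 5 sodium bicarbonate carriers, which bring bicarbonate into or out of the cell together with sodium. Slc4a5 encodes NBCe2, an electrogenic sodium bicarbonate cotransporter known from epithelia such as the choroid plexus. It lies on chromosome 6 from 83219828 to 83304945 (GRCm38, plus strand). It had 512 and 510 in S100A4-/- lenses and 78.3 and 119 in WT lenses. The groups were far apart, with a log2 fold change of 2.39 (SE 0.15, limma adjusted p = 3.78e-15).

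Slc4a10, a sodium-driven bicarbonate carrier of neurons and choroid plexus, lies on chromosome 2 from 62046462 to 62326730. It had 29.1 and 43.6 in S100A4-/- lenses and 9.40 and 3.28 in WT lenses, with a log2 fold change of 2.46 (SE 0.55, limma adjusted p = 0.00202). The WT values came from 9 and 3 reads, and the ratio of the pooled reads was 5.57, with a 95% interval of 3.01 to 11.3 for counting error alone. The log2 fold change of Slc4a10 was 3.10 without WT library 1 and 1.82 without WT library 2. Slc4a8, the sodium-driven chloride bicarbonate exchanger of neurons, lies on chromosome 15 from 100761747 to 100823968. It had 66.8 and 54.7 in S100A4-/- lenses and 12.5 and 31.8 in WT lenses. The WT libraries differed by more than the S100A4-/- libraries did, yet the groups did not overlap, and the log2 fold change was 1.55 (SE 0.37, limma adjusted p = 0.00467). DESeq2 did not call it (adjusted p = 0.0669, within a range up to 0.353 over the alternatives run). The log2 fold change of Slc4a8 was 0.91 without WT library 1, under 2-fold, and 2.18 without WT library 2.

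The other 2 sodium bicarbonate carriers did not pass. Slc4a4, which encodes NBCe1 and had the highest level of the family per kb of exon in WT, had 1511 and 1254 in S100A4-/- lenses and 1320 and 1265 in WT lenses. Its groups overlapped, and its log2 fold change was 0.09 (SE 0.07, limma adjusted p = 0.579). Slc4a7, which encodes NBCn1, had a log2 fold change of 0.07 (SE 0.13). None of the 3 anion exchangers Slc4a2, Slc4a3 and Slc4a9, which swap chloride for bicarbonate, passed, with a median log2 fold change of 0.04. Per kb of exon, Slc4a5 in WT lenses stood at 17, against 119 for Slc4a4. In S100A4-/- lenses the same levels were 88.0 and 128.

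Calcium exchangers (Slc8 and Slc24). Of 8 calcium exchangers tested, 2 rose, both of the potassium-dependent Slc24 family. Slc24a1 encodes NCKX1, the sodium calcium potassium exchanger of rod outer segments, and lies on chromosome 9 from 64922861 to 64951607 on the minus strand. It had 539 and 471 in S100A4-/- lenses and 122 and 118 in WT lenses. The lowest S100A4-/- library was several times the highest WT library, and the log2 fold change was 2.06 (SE 0.13, limma adjusted p = 3.71e-15). All 8 rod photoreceptor markers listed rose as well, with a median log2 fold change of 2.08, and their part in this result was not tested. The paper had already reported all 8 markers as higher in these same lenses, so this count is not an independent result.

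Slc24a5 encodes NCKX5, the exchanger of pigment granules, and lies on chromosome 2 from 125068124 to 125088677. It had 20.6 and 21.3 in S100A4-/- lenses and 5.22 and 2.19 in WT lenses, the latter from 5 and 2 reads. The groups did not overlap, with a log2 fold change of 2.30 (SE 0.67, limma adjusted p = 0.0277) and a pooled read ratio of 5.58 (95% counting interval 2.50 to 14.7). DESeq2 did not call it (adjusted p = 0.116, within a range up to 0.245 over the alternatives run). Its end overlaps Myef2 on the opposite strand from 125084628 to 125088677. Myef2 had 260 and 222 in S100A4-/- lenses and 250 and 285 in WT lenses, and the groups of Myef2 overlapped. The libraries were made with a stranded kit, but the sources used here do not say whether the counting used the strand, so reads in the overlap may not have been told apart. Of the 6 pigmented cell markers tested, 5 rose (median log2 fold change 2.49), and their part was not tested.

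The other calcium exchangers did not pass. Slc24a4, which encodes NCKX4, had the highest level per kb of exon of all 62 carriers in WT lenses, 1322, and had 6126 and 6087 in S100A4-/- lenses and 5932 and 6024 in WT lenses. The S100A4-/- values were both above the WT values, by a log2 fold change of only 0.03 (SE 0.05, limma adjusted p = 0.808). Slc24a2, the exchanger of cones and neurons, had a log2 fold change of -0.03 (SE 0.08). Within Slc24 the rod gene Slc24a1 and the pigment granule gene Slc24a5 passed by limma, and Slc24a4, with the highest level, did not. Slc24a5 was over the filter on low values only through the S100A4-/- libraries, and DESeq2 did not call it. None of the 3 sodium calcium exchangers of Slc8 passed, and Slc8a1, the highest of them per kb, had 247 and 260 against 223 and 210 in WT lenses (log2 fold change 0.23, SE 0.13, limma adjusted p = 0.396).

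Anion exchangers (Slc26). Among 6 members tested, Slc26a4 rose. It encodes pendrin, which exchanges chloride for iodide or bicarbonate in the thyroid, the inner ear and the kidney, and lies on chromosome 12 from 31519827 to 31559969 on the minus strand. It had 313 and 275 in S100A4-/- lenses and 47.0 and 62.4 in WT lenses. The groups were well separated, with a log2 fold change of 2.41 (SE 0.19, limma adjusted p = 7.47e-13). The sulfate carrier Slc26a11, the highest of the family per kb in WT, had 334 and 261 against 291 and 297 in WT lenses, with a log2 fold change of 0.01 (SE 0.13, limma adjusted p = 0.987). The family sum per kb of exon was 249.9 and 219 in S100A4-/- lenses and 145 and 148 in WT lenses, a ratio of 1.60. Slc26a4 carried most of this difference, since the sum over the other members was 149 and 130.3 against 129 and 128, a ratio of 1.09.

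Cation chloride cotransporters (Slc12). Among 7 members tested, Slc12a5 rose. It encodes KCC2, the potassium chloride cotransporter that keeps chloride low in neurons, and lies on chromosome 2 from 164960802 to 164999731. It had 387 and 379 in S100A4-/- lenses and 101 and 114 in WT lenses. The libraries of each genotype lay close together, and the log2 fold change was 1.82 (SE 0.14, limma adjusted p = 1.34e-12). Of the 9 inner retinal neuron markers tested, 6 rose (median log2 fold change 1.53), and their part in the values of Slc12a5, Slc4a8 and Slc4a10 was not tested.

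The potassium chloride cotransporters Slc12a4 and Slc12a7, which are more widely expressed, did not pass, with log2 fold changes of 0.00 and 0.17. Slc12a2 encodes NKCC1, which brings sodium, potassium and chloride into the cell, and was the highest of the family per kb in WT. It had 2307 and 2147 in S100A4-/- lenses and 2577 and 2487 in WT lenses. Both S100A4-/- values lay below both WT values, as for 23.2% of all genes tested, with a log2 fold change of -0.19 (SE 0.06, limma adjusted p = 0.0462). It was the only carrier lower without the fold threshold, where 1.33% of all genes tested were lower, and DESeq2 gave it an adjusted p of 0.172.

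Sodium proton exchangers (Slc9). Among 6 members tested, Slc9a7 rose. It encodes NHE7, an exchanger of the trans-Golgi network, and lies on chromosome X from 20105754 to 20291807 on the minus strand. It had 33.4 and 24.3 in S100A4-/- lenses and 7.31 and 4.38 in WT lenses, the latter from 7 and 4 reads. The groups did not overlap, with a log2 fold change of 2.14 (SE 0.56, limma adjusted p = 0.0104) and a pooled read ratio of 4.97 (95% counting interval 2.60 to 10.5). DESeq2 gave it an adjusted p of 0.0532, within a range up to 0.264 over the alternatives run. A pseudogene, Gm9083, lies within it on the opposite strand. The sexes of the pooled lenses are not given in the sources used here.

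Slc9a8, an exchanger of the Golgi, had 940 and 1016 against 972 and 868 in WT lenses. Its groups overlapped, and it did not pass (log2 fold change 0.09, SE 0.08). The endosomal exchanger Slc9a9 did not pass either (log2 fold change 0.27, SE 0.33).

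Zinc carriers (Slc30 and Slc39). None of the 20 zinc carriers tested passed in either direction by limma, and 2 had an unadjusted p under 0.05. The 2 were Slc39a11, with a log2 fold change of -0.26 (SE 0.12), and Slc39a12, with 0.54 (SE 0.19). Slc39a13, the highest zinc carrier per kb in WT at 619, had 2838 and 2955 in S100A4-/- lenses and 2986 and 3043 in WT lenses. Its log2 fold change was -0.06 (SE 0.05, limma adjusted p = 0.648). Slc30a9 was the highest exporter per kb. It had 2143 and 2120 against 2243 and 2207 in WT lenses, with a log2 fold change of -0.06 (SE 0.06, limma adjusted p = 0.646). Both of these highly expressed zinc carriers were measured with a small error and differed by a few percent. The zinc carrier furthest from 0 was Slc39a8, with 7.71 and 16.2 against 5.22 and 2.19 in WT lenses, and at these few reads it did not pass (log2 fold change 1.46, SE 0.79, limma adjusted p = 0.344).

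Phosphate and magnesium carriers (Slc20 and Slc41). Neither Slc20a1 nor Slc20a2, the sodium phosphate carriers Pit1 and Pit2, passed. Slc20a2, second to Slc24a4 in level per kb of exon, had 5496 and 5703 in S100A4-/- lenses and 5702 and 5559 in WT lenses. Its groups overlapped, and the log2 fold change was -0.01 (SE 0.05, limma adjusted p = 0.956). Of the 3 members of Slc41, Slc41a1, a magnesium carrier of the cell surface, had 1129 and 1078 against 777 and 888 in WT lenses. Its groups did not overlap, and its adjusted p was 2.95e-04, but with a log2 fold change of 0.41 (SE 0.08) it stayed under the 2-fold threshold. It was the only carrier added as higher without that threshold, where 9 carriers and 5.62% of all genes tested were higher.

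Within the families the carriers that did not pass spread to different degrees. Their log2 fold changes ranged from -0.46 to 0.09 over 6 members of Slc4 and from 0.23 to 0.86 over 3 of Slc8. Over 3 members of Slc24 the range was -0.03 to 0.07, and over 5 of Slc26 it was -0.06 to 0.87. The upper end of Slc8 was Slc8a3, a sodium calcium exchanger of nerve and muscle, with 34.3 and 45.6 in S100A4-/- lenses and 20.9 and 21.9 in WT lenses, which did not overlap (SE 0.37, limma adjusted p = 0.202). That of Slc26 was Slc26a6, an exchanger of chloride for oxalate and bicarbonate, with 32.5 and 37.5 against 18.8 and 18.6 in WT lenses (SE 0.40, limma adjusted p = 0.231). The lower end of Slc4 was Slc4a9, with 10.3 and 12.2 against 12.5 and 19.7 in WT lenses (SE 0.55). In the zinc families the ranges were -0.13 to 0.59 over 8 members of Slc30 and -0.26 to 1.46 over 12 of Slc39, and Slc41 ran from -0.14 to 0.41.

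**Figure D3:**
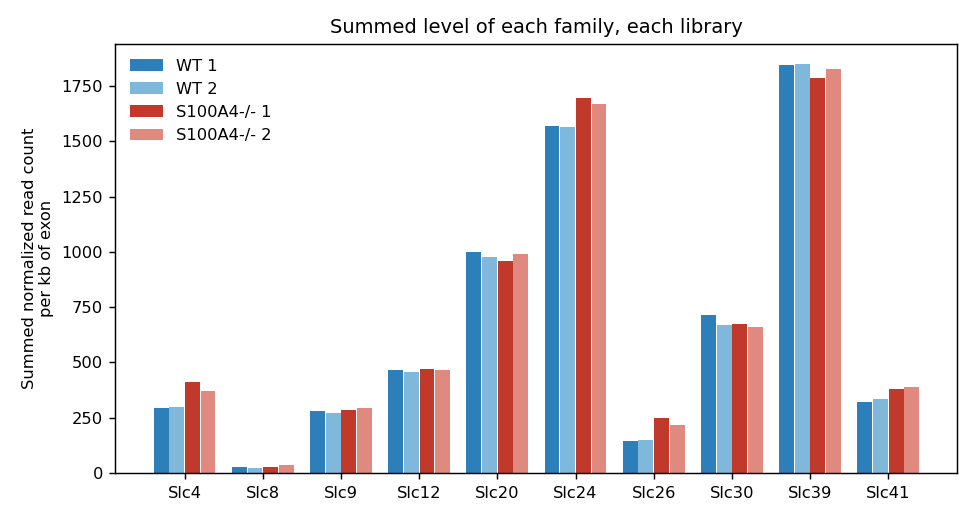
Summed normalized read count per kb of exon of each family (bars from 0), in WT libraries 1 and 2 (blue) and S100A4-/- libraries 1 and 2 (red). Slc39 and Slc24 hold the highest sums in each library, and the sum over Slc4 was 410 and 369 in S100A4-/- lenses against 295 and 299 in WT lenses.

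The carriers that rose were low in the WT lens. Ranked by level per kb of exon in WT lenses, from 1 for the highest to 62, the 8 carriers took ranks between 36 and 61, and the 5 highest carriers, Slc24a4, Slc20a2, Slc39a13, Slc39a1 and Slc12a2, together held 53.2% of the summed level. The 8 carriers held 1.09% and 1.27% of the summed level per kb in the WT libraries and 5.35% and 4.97% in the S100A4-/- libraries. As read depth, not corrected for gene length, their median normalized read count in WT was 38.4. It was 339 for the carriers that did not pass and 22.6 for all genes that rose. The 41 carriers that did not pass and had at least 50 in WT had log2 fold changes between -0.26 and 0.54. Summed over all 62 carriers, the values were 40285 and 39807 in S100A4-/- lenses and 38881 and 38327 in WT lenses, without overlap. Over the carriers that did not pass, a set chosen by the test, they were 38385 and 38028 against 38498 and 37871, and these sums overlapped.

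**Figure D4:**
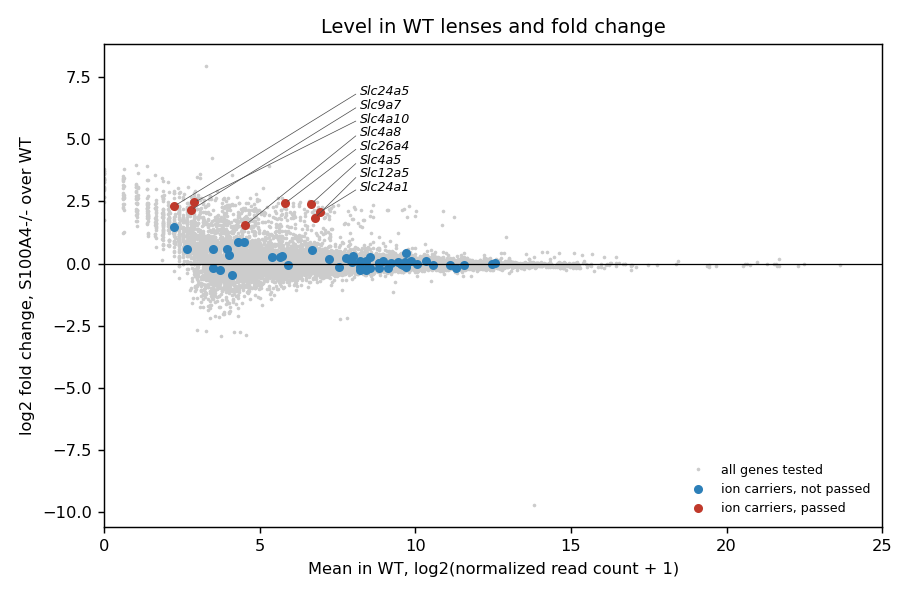
The log2 fold change, S100A4-/- over WT, against the mean in WT on the log2(normalized read count + 1) scale, for all 14780 genes tested (grey), the 8 carriers that passed (red, named) and the other carriers (blue). The red points lie in the left part of the plot, at fold changes shared by many other genes, and the blue points at high levels lie close to the zero line.

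The 250 bases before the start of 4 of the carriers that rose, and of Slc24a4, which had the highest level and did not pass, are shown to set their CG dinucleotides side by side. They are RefSeq promoters of GRCm38.p6, written 5′ to 3′ on the strand of the gene, with each CG in capitals. Slc24a1 is chr9:64951621-64951870 (minus strand), Slc4a5 is chr6:83237125-83237374 (plus), Slc26a4 is chr12:31559985-31560234 (minus), Slc12a5 is chr2:164960596-164960845 (plus, the first of 2 listed starts) and Slc24a4 is chr12:102128477-102128726 (plus). For Slc4a5 the window precedes a RefSeq start inside the gene, whose GENCODE span given above begins at 83219828.
Slc24a1: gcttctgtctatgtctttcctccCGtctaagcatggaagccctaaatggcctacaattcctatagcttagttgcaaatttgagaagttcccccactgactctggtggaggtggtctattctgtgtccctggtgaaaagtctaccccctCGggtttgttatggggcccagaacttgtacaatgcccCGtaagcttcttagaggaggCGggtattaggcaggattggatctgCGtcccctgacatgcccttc
Slc4a5: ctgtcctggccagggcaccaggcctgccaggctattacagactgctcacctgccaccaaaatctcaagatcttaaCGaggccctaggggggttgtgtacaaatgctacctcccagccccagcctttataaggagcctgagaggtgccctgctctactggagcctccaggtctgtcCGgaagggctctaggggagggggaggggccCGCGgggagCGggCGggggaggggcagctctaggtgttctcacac
Slc26a4: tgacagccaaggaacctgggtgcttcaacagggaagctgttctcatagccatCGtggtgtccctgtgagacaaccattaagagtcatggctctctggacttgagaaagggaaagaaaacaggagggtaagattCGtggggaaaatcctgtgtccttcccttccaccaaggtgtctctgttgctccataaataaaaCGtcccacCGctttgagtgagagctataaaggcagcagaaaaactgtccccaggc
Slc12a5: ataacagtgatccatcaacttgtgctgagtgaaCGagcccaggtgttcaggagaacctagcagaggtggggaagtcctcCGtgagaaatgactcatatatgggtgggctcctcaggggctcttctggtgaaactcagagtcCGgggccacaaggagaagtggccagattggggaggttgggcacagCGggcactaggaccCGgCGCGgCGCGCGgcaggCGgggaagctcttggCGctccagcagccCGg
Slc24a4: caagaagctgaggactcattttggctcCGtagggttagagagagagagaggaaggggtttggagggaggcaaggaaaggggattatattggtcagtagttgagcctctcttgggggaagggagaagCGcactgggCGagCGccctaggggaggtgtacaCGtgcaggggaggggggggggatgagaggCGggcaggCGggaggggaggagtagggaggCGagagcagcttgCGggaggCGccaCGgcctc

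These sequences held 5 CG in Slc24a1, 6 in Slc4a5, 4 in Slc26a4, 13 in Slc12a5 and 11 in Slc24a4. RefSeq promoters were matched for 50 of the 62 carriers, with 63 starts. The 10 promoters of the 8 carriers that rose had a median of 5.5 CG in 250 bases, the 52 promoters of carriers tested that did not pass 12.5, and all 32851 RefSeq promoters had a median of 6. The 10 were not alike, from 2 CG at a start of Slc4a10 to 19 at Slc9a7. Slc4a8 and the start of Slc12a5 that is not shown held 16 each. The letters TAATCC, the core that the photoreceptor factor CRX binds, were searched on both strands. They were in none of these 10 promoters and in 6.25% of all promoters, and Slc24a4 held a copy that begins 171 bases before its start. The letters TGCTGA, the core of the site of the lens factors of the MAF family, were in 2 of the 10 and in 16.1% of all promoters. In Slc12a5 they began 228 bases before the start shown. These are matches of letters and not sites of binding, and letters that are absent from this window may stand elsewhere.

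Genes that work with the ion carriers were listed by hand in 6 groups, and 3 of the 42 tested rose while none fell by limma. Under the same rule 3.65% of all genes tested rose and 0.0744% fell. The paper had already named Slc13a4 and Slc5a5, which are among the 3, as higher in these lenses. The count is therefore not independent of how the list was made. The count of companion genes called was also 3 by edgeR and by DESeq2. In the WNK pathway, the kinases that turn cation chloride cotransporters on and off, Wnk4 rose and the other 7 genes did not pass. Wnk4 had 118 and 155 in S100A4-/- lenses and 16.7 and 37.2 in WT lenses, with a log2 fold change of 2.39 (SE 0.30, limma adjusted p = 1.16e-07). The groups did not overlap. Stk39, the kinase SPAK that WNK kinases activate, was the highest of that group per kb in WT and had 5091 and 4950 against 5637 and 5510 in WT lenses (log2 fold change -0.15, SE 0.05, limma adjusted p = 0.0523).

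In the group of other inorganic ion carriers, 2 of 9 rose, against 3.65% of all genes tested. The paper had already named both as higher in these lenses, so this count is not an independent result. Slc13a4, a sodium sulfate cotransporter, had 558 in both S100A4-/- libraries and 129 and 153 in WT lenses (log2 fold change 1.98, SE 0.13, limma adjusted p = 2.79e-15). Slc5a5, the sodium iodide symporter, had 89.9 and 65.9 against 16.7 and 12.0 in WT lenses (log2 fold change 2.36, SE 0.35, limma adjusted p = 5.71e-06). The proteins of Slc5a5 and of the pendrin gene Slc26a4 both carry iodide, and both genes rose, but iodide carriers were not tested as a set. Slc31a1, a copper carrier and the highest of the group per kb, had a log2 fold change of 0.23 (SE 0.05, limma adjusted p = 0.00485) and stayed under 2-fold.

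The remaining groups held no gene that passed. Among 8 carbonic anhydrases, which make the bicarbonate that Slc4 proteins carry, the highest per kb was Car14, with 3037 and 3178 against 2987 and 2874 in WT lenses and a log2 fold change of 0.08 (SE 0.05, limma adjusted p = 0.455). Among 4 regulators of sodium proton exchangers the highest per kb, Chp1, had a log2 fold change of -0.06 (SE 0.09). Among 4 zinc buffering genes the highest per kb, the metallothionein gene Mt1, had 0.56 (SE 0.17, limma adjusted p = 0.0312), under 2-fold. Among 9 genes of magnesium transport the highest per kb, Magt1, had -0.12 (SE 0.07), and Cnnm4 had 0.46 (SE 0.14, limma adjusted p = 0.0368), also under 2-fold.

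Markers of other cell types of the eye moved with the carriers that rose. The counts of markers that rose stand against 3.65% of all genes tested. Many of the markers, among them every rod marker, had already been reported by the paper as higher in these same lenses. Their counts are therefore not independent results. In bulk RNA, more cells of a type and more RNA per cell cannot be told apart. The summed normalized read count of the 8 rod photoreceptor markers was 7991 and 7798 in S100A4-/- lenses and 1776 and 1959 in WT lenses, and all 8 rose. The most abundant of a list is given here as the highest in WT per kb of exon. For rods it was Gnat1, which encodes rod transducin and had 3339 and 3327 against 736 and 782, so rod markers had reads in WT lenses as well. Of the 7 cone photoreceptor markers 4 rose, with sums of 208 and 222 against 82.5 and 70.1, and Arr3 was the most abundant.

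The Müller glia sum, 163535 and 174492 against 168939 and 170198, was set by Vim and Dkk3, the latter the most abundant, neither of which passed. Of the 8 markers 4 rose, Glul from 1779 and 1923 to 5387 and 5421, and the paper had already named these 4 as higher. The 9 inner retinal neuron markers summed to 2552 and 2427 against 1190 and 1216, with Cabp5 the most abundant and not among the 6 that rose. The 6 pigmented cell markers summed to 1672 and 1737 against 682 and 754, with 5 that rose, and their most abundant gene, Oca2, was not among these. Dct, a gene of melanin synthesis, had 581 and 582 against 31.3 and 44.9. For the 6 ciliary body epithelium markers, of which 5 rose, the sums were 5306 and 5095 against 1389 and 1698, with Optc the most abundant.

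The 6 macrophage markers summed to 272 and 238 against 98.2 and 73.4, with 4 that rose and C1qa the most abundant. Of 6 red blood cell markers 1 rose (sums of 638 and 629 against 633 and 509, Hbb-bs the most abundant). Of 6 endothelial markers 1 rose (sums of 207 and 215 against 109 and 138, Cldn5 the most abundant). The lens sum, led by Cryaa, was 21177083 and 23055840 against 23253416 and 23457532. No marker in the table was at 0 reads in any library (0 genes), none fell by limma, and the part of any of these cell types in the values of the 8 carriers was not tested.

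**Figure D5:**
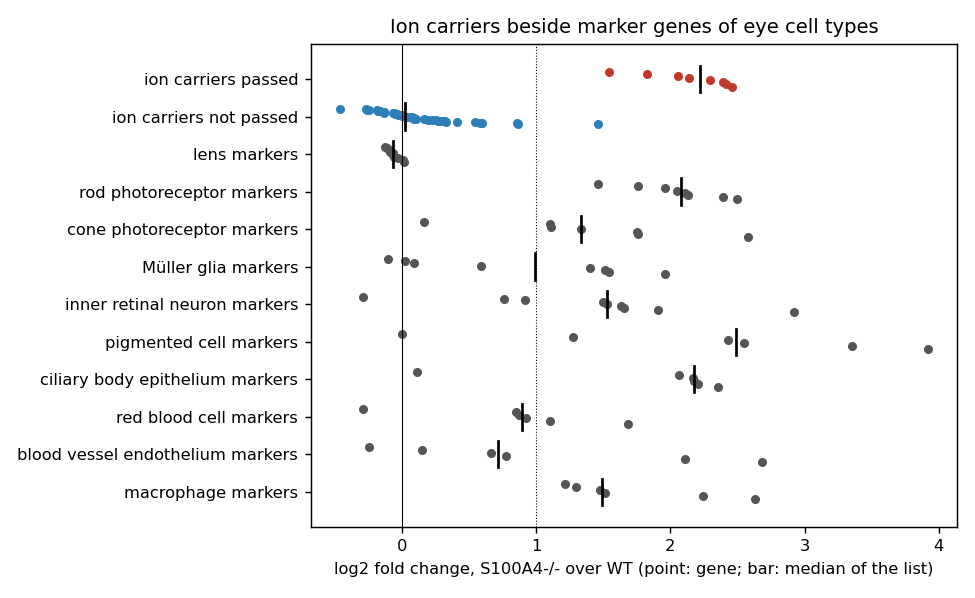
The log2 fold change, S100A4-/- over WT, of single genes (points) with the median of each list (bar), for the carriers that passed (red), the carriers that did not (blue) and the marker lists of lens and other cell types (grey), with a dotted line at a 2-fold rise. The lens markers lie between -0.12 and 0.02, and the medians of the rod, pigmented cell and ciliary body lists are 2.08, 2.49 and 2.17.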

How the data were processed

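The authors trimmed reads with Trim Galore, aligned them with STAR to the mouse genome (GRCm38, mm10 in the submitters' processing notes), counted single-locus reads per gene with HTSeq and dropped genes that reached 10 reads in no library. The authors deposited signal values, these counts divided by DESeq2 size factors. Tool versions are not given in the sources used here. All values (100%) were whole multiples, within 0.01 read, of the value of 1 read, so reads were recovered by division. No column of per-sample values lacked a sample (0 columns).

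The 14780 of 14924 genes that reached a value of 10 in some library were compared by limma 3.58.1 (lmFit, eBayes with trend) on log2(value + 1). This is the main test, since the values are not counts, while the count tests edgeR 4.0.16 (quasi-likelihood) and DESeq2 1.42.0 (Wald) on the recovered reads were alternatives. They called 8 and 5 ion carriers. A fold change on the log2(value + 1) scale understates that of low genes. A value under that of 3 reads (2.57, 3.04, 3.13 and 3.28 in S100A4-/- libraries 1 and 2 and WT libraries 1 and 2) was taken as under the floor. Floors and intervals cover counting error only. Each library was counted as a replicate, as the labels describe them. Between the libraries of 1 genotype the chi-square per gene had a mean of 49.2 (S100A4-/-) and 15.7 (WT) and a median of 1.36 and 1.07.

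Groups were taken from the labels. The carriers, companion genes, markers, tests and alternatives were chosen with earlier results of these data known. Genes given in full are the carriers that passed, those the paper names, 1 of which was not analysed here, and the highest of each family per kb of exon in WT. Other carriers named were chosen after their values were seen. Results of 3 carriers are not reported here by gene. Exon lengths, coordinates and overlaps came from GENCODE M21, to which 14782 genes were matched by identifier. The limma, edgeR and DESeq2 tests of the comparison were first tested on simulated data, and the other alternatives were not. R 4.3.3, Python 3.11.15, pandas 2.3.3, scipy 1.17.1 and matplotlib 3.10.9 were used.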

Additional observations from a re-analysis of the deposited data

How the results depend on the processing

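The count of 8 ion carriers that rose was also 8 with pseudocounts of 0.5 and 5, without the filter, with TMM factors, with equal totals and with edgeR. It was 5 with DESeq2, 5 with quantile normalization, 4 with limma's treat test against a 2-fold change, 4 among genes with a mean of at least 50 and 3 without the variance trend, where Slc4a5 had an adjusted p of 0.0648. With a library left out it was 4 to 7, the lone library of a genotype being assumed to vary like the other genotype. It was 4 without S100A4-/- library 1 or 2 and 7 without WT library 1 or 2. Slc12a5, Slc24a1 and Slc26a4 passed in 15 of 15 alternatives with the 2-fold rule, Slc4a5 in 14 of 15, Slc4a10 in 11 of 14, Slc9a7 in 9 of 14, and Slc4a8 and Slc24a5 in 8 of 14. The count of lower carriers was 0 in all settings with a fold threshold and 1 (Slc12a2) without it.

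Over all genes, the 539 that rose became 168 with treat, 174 without the trend, 281 at a mean of at least 50, 831 without the fold threshold and 168 to 546 with a library left out (168 without S100A4-/- library 1 and 210 without S100A4-/- library 2). The 11 that fell became 6 with DESeq2, 3 with treat, 7 without the trend, 6 at a mean of at least 50, 23 with quantile normalization, 197 without the fold threshold and 4 to 13 with a library left out (4 and 6 without S100A4-/- library 1 and 2). The 3 companion genes became 1 without the trend, 6 without the fold threshold and 2 to 4 with a library left out. The median log2 fold change of the carriers, 0.07, was 0.019 at a mean of at least 50, 0.033 with quantile normalization and 0.0075 (without WT library 2) to 0.115 (without WT library 1) with a library left out. No named gene reversed its direction in a call. The cause of these shifts was not tested, apart from the smaller number of genes tested at a mean of at least 50 and of libraries when 1 was left out.

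The replicate numbers did not pair the libraries (correlation of the deviations of same-numbered libraries 0.01, 2 pairs). With the replicate number as a block, 8 carriers rose, the same genes, and none fell, with 576 genes higher and 15 lower in all and 3 companion genes. Depth limits Slc4a10, Slc9a7, Slc24a5 and Slc39a8, which rest on few reads in WT.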
